A study of Mus musculus with 21 samples.

Results

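Genes of light-sensing and melatonin-making cells, namely *Crx*, *Nrl*, *Sag*, *Rcvrn*, *Pde6b*, *Gngt1*, *Prph2*, *Tph1* and *Aanat*, were followed in RNA sequencing data from newborn mice. All 9 of these 9 genes were found by symbol among the 24391 genes of the count tables. They were chosen by their counts in the same 7 brain libraries in which KI and WT mice were compared, so their brain values are a description and carry no test. Brain, liver and skin of 2 KI mice and 5 WT mice gave 21 libraries, 1 per mouse and tissue. All mice were C57BL/6 in the labels (C57BL/6J in the study's methods) and were sampled on the day of birth (P0). KI mice carried 1 *Jak1* allele with the amino acid change H595D and the silent changes I596I and Y597Y (*Jak1* H595D/+;I596I/+;Y597Y/+), and the WT mice carried no introduced change. In the study such KI pups came from a male that was mosaic for the edited allele. Mice with the silent changes alone were not analysed here, so the effects of the 3 changes cannot be told apart.

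Rods, cones and the pinealocytes of the pineal gland share much of their gene programme. In photoreceptors, light-activated opsin acts through the G protein transducin to switch on a phosphodiesterase that breaks down cyclic GMP, and arrestin and recoverin help to end and tune the response. The mammalian pineal gland expresses several of the same proteins, although its melatonin output is driven by nerve input, and it makes melatonin from tryptophan by way of serotonin. The homeobox factor CRX acts on genes in both cell types, whereas NRL directs the rod fate.

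The brain libraries held 26549326 to 35606374 counts on genes (median 32559821), the liver libraries 30105720 to 38388133 and the skin libraries 28637568 to 34900383. Levels are given as raw counts and as CPM, the count scaled to a fixed total of counts on genes, and 3 counts were worth between 0.0843 and 0.113 CPM in a brain library. The brain library of WT 5 stood apart: its mean Pearson r with the other brain libraries, over log2 CPM of the genes tested, was 0.9277, against 0.9674 to 0.9725 for the other 6. The neuron genes *Stmn2*, *Tubb3*, *Map2* and *Neurod6* summed to between 5563 and 7368 CPM in the brain libraries, and the liver genes *Alb*, *Afp* and *Apoa1* to between 1.80 and 13.3 CPM.

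*Crx*, the homeobox factor gene, had 60 counts in KI 1 and 80 in KI 2. Among the WT brains it had 0 counts in WT 1, WT 2 and WT 3, 1 in WT 4 and 44 in WT 5. The 2 KI brains and WT 5 were thus high and the other 4 WT brains were at or next to 0. The mean level was 2.03 ± 0.494 CPM (SD, n = 2) in KI brains and 0.337 ± 0.738 CPM (n = 5) in WT brains. Without WT 5, the KI brains held 140 counts and the 4 remaining WT brains 1 count in all. *Crx* had 0 counts in all 14 liver and skin libraries, and a count of 0 allows up to 3 counts, between 0.0781 and 0.0996 CPM in a liver library and between 0.0860 and 0.105 CPM in a skin library. In bulk tissue, more cells of a type and more RNA per cell cannot be told apart. The *Crx* gene spans chr7:16451296-16465317 in mm9 (NCBIM37, minus strand), and none of its exons overlaps another annotated gene, which also held for the other 8 genes. The 250 bases upstream of its start, chr7:15879956-15880205 on the minus strand of GRCm38.p6 in RefSeq, are shown because they hold the CRX-type homeobox motif TAATCC 2 times, in capitals and here both read as the reverse complement GGATTA, with first bases 94 and 21 bases before the start.
Crx: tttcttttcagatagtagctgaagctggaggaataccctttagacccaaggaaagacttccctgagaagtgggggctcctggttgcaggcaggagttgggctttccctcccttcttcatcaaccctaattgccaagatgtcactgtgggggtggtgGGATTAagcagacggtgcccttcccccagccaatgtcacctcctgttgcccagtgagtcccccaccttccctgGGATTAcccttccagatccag

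*Nrl*, the leucine zipper factor gene of the rod fate, was lower on average in the KI brains. It had 21 counts in KI 1 and 34 in KI 2, against 34, 49, 33, 43 and 62 in WT 1 to WT 5. The mean level was 0.801 ± 0.299 CPM (n = 2) in KI brains and 1.46 ± 0.537 CPM (n = 5) in WT brains. In CPM both KI brains, at most 1.01, lay below all 5 WT brains, at least 1.04, and the fitted log2 fold change was -0.91 (standard error 0.472). That gap was narrow for KI 2, which in raw counts was level with WT 1 and above WT 3. WT 5 was the highest of the 7 for *Nrl*. *Nrl* was present in every brain, including the 4 that had at most 1 count of *Crx*. In liver it had 0 to 3 counts and in skin 0 to 1.

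*Sag* encodes S-arrestin, which binds light-activated opsin and stops it from signalling, and is also expressed in the pineal gland. It had 66 and 62 counts in KI 1 and KI 2 and 29, 10, 17, 23 and 34 counts in WT 1 to WT 5. Both KI brains lay above all 5 WT brains, and WT 5 was the highest of the WT brains. How many of all genes tested had both KI brains above, or both below, every WT brain was not counted, for *Sag* or any gene here. Mean levels were 1.85 ± 0.00428 CPM (n = 2) and 0.744 ± 0.365 CPM (n = 5), with a fitted log2 fold change of 1.27 (standard error 0.488), or 1.60 without WT 5. Unlike *Crx*, *Sag* was counted at like levels outside the brain, with 12 to 33 counts in liver and 11 to 33 in skin. The window upstream of *Sag* (chr1:87803430-87803679, plus strand, GRCm38.p6) is shown for its single match to the same motif, in capitals, which starts 87 bases before the gene start.
Sag: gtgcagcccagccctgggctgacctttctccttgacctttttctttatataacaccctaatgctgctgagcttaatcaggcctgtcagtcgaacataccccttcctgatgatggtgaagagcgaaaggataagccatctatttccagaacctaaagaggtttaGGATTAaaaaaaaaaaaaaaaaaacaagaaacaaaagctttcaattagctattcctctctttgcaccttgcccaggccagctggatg

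The other genes of the light response were at the limit of what these libraries could count. *Rcvrn*, which encodes the calcium sensor recoverin, had 7 and 1 counts in the KI brains and 2, 3, 1, 1 and 4 in WT 1 to WT 5. *Pde6b*, a catalytic subunit gene of the rod phosphodiesterase, had 4 and 0 counts in the KI brains and 1, 2, 1, 0 and 0 in the WT brains. For both genes the KI range covered the whole WT range. *Gngt1*, which encodes a subunit of rod transducin, had 0 counts in both KI brains and 0, 1, 1, 0 and 0 in the WT brains. *Prph2*, which encodes a tetraspanin that shapes the rim of the outer segment discs, had 2 and 4 counts in the KI brains and 0, 0, 0, 5 and 4 in the WT brains. For none of the 4 genes did a brain library exceed 7 counts, so a difference between KI and WT brains was not detectable at this depth. *Gngt1* was counted more often in liver, with 5 to 17 counts, than in the brain, and *Pde6b* had 0 to 9 counts there. Their skin counts were 0 and 0 to 1, and *Rcvrn* and *Prph2* had at most 1 count in liver and at most 2 and 4 counts in skin.

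*Tph1* encodes tryptophan hydroxylase, the rate-limiting enzyme of serotonin synthesis in the pineal gland and in peripheral tissues. It had 163 counts in KI 1 and 214 in KI 2, against 12, 26, 3, 11 and 148 counts in WT 1 to WT 5. As for *Crx*, the KI brains and WT 5 formed the high libraries and did not overlap with WT 1 to WT 4. The mean level was 5.48 ± 1.27 CPM (n = 2) in KI brains and 1.44 ± 2.33 CPM (n = 5) in WT brains. The fitted log2 fold change was 1.86 (standard error 1.18) with all libraries and 3.74 without WT 5, when the WT mean was 0.408 ± 0.312 CPM (n = 4). The *Tph1* gene spans chr7:53902500-53927907 in mm9 (minus strand). RefSeq gives 2 starts for it, upstream of which the windows chr7:46672538-46672787 and chr7:46667378-46667627 (minus strand, GRCm38.p6) are shown because, in contrast to *Crx* and *Sag*, neither holds the motif on either strand.
Tph1, first start: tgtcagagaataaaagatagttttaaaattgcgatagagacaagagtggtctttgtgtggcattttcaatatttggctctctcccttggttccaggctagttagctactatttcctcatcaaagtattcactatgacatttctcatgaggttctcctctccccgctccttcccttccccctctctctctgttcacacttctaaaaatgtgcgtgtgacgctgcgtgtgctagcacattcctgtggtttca
Tph1, second start: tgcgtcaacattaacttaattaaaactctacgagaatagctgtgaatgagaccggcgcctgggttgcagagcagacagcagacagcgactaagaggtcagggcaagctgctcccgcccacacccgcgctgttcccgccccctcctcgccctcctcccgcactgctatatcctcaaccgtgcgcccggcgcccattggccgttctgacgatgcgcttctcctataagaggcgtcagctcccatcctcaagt

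*Aanat* encodes the enzyme that acetylates serotonin on the way to melatonin. It had 10 counts in each KI brain and 3, 8, 3, 25 and 12 counts in WT 1 to WT 5. The highest library was WT 4, where *Crx* had 1 count and *Tph1* 11. Mean levels were 0.289 ± 0.0121 CPM (n = 2) in KI brains and 0.329 ± 0.276 CPM (n = 5) in WT brains, a difference well inside the spread of the WT brains. *Aanat* had 0 to 5 counts in liver and 0 to 2 in skin.

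**Figure D1:**
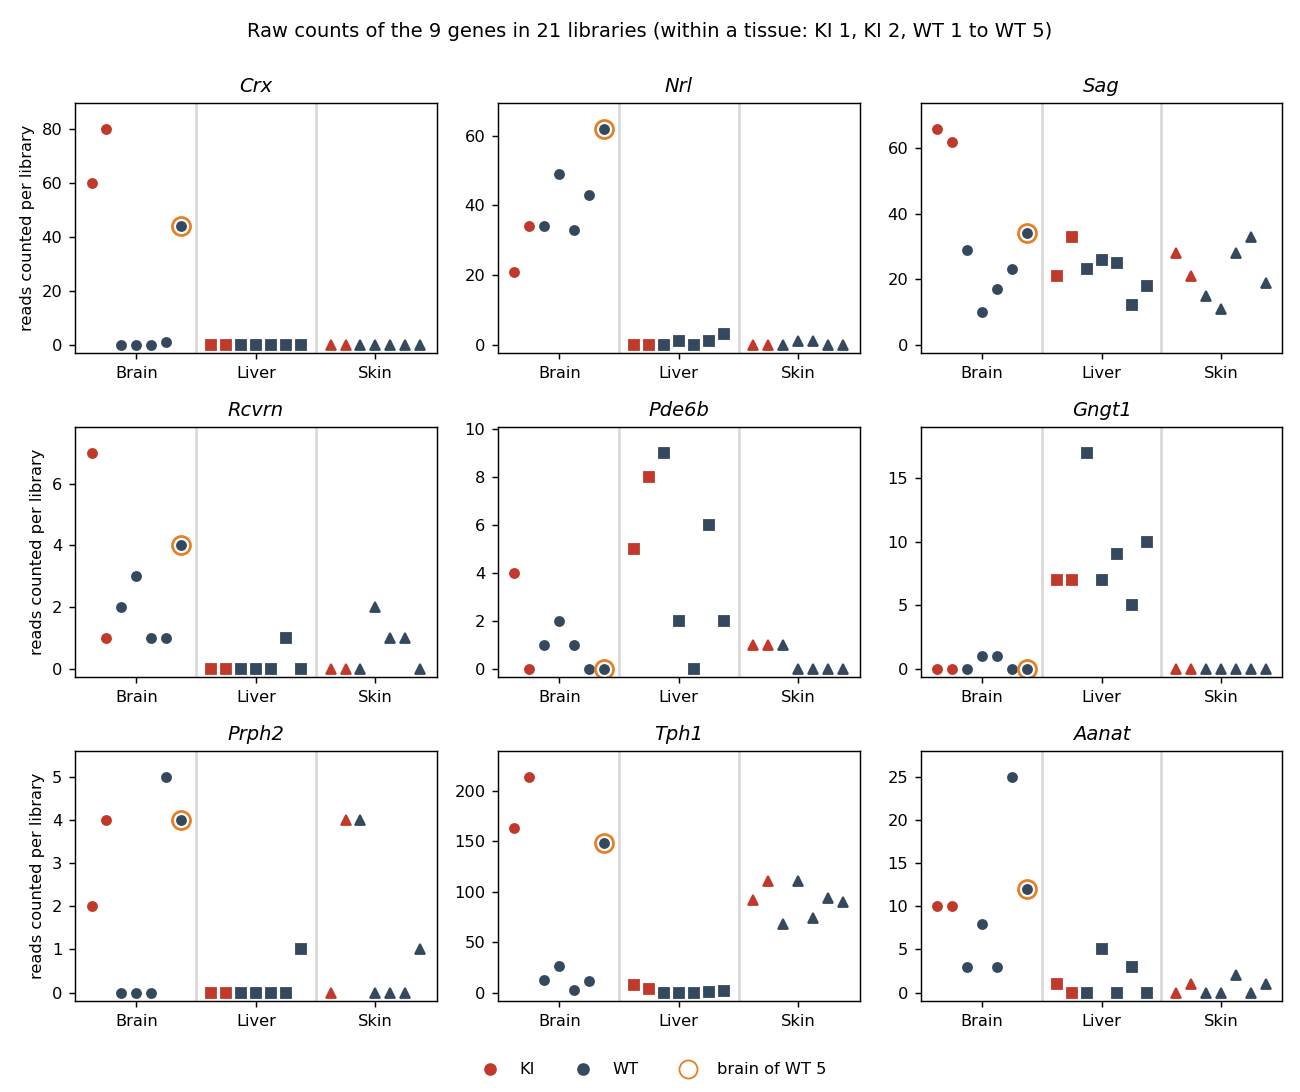
Raw read counts of the 9 genes (vertical axes, 1 scale per gene) in each of the 21 libraries, grouped by tissue, with KI mice in red, WT mice in dark blue and the brain of WT 5 ringed. *Crx* reached 60 and 80 counts in the KI brains and 44 in WT 5 and at most 1 in the other 18 libraries, *Tph1* followed the same order in the brain but also had 68 to 111 counts in skin, and *Rcvrn*, *Pde6b* and *Prph2* stayed at or under 7 counts in every brain.

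The 9 genes did not move as 1 group. *Crx*, *Sag* and *Tph1* had KI 1, KI 2 and WT 5 each above WT 1 to WT 4 in CPM, an order that 760 of the 16322 genes tested in the brain, or 4.66%, also had. For these 3 genes the order is part of what they were chosen for. Of the other 6, *Nrl* was lower in CPM in both KI brains than in every WT brain, though only narrowly for KI 2. *Aanat* was highest in WT 4, and 4 had too few counts to order. Within the 3 high libraries the order differed between genes, but counts were low and whether the genes kept 1 ratio was not tested. *Crx* and *Tph1* were highest in KI 2, with 2.38 and 6.38 CPM, but *Tph1* was lower in KI 1 than in WT 5 (4.58 against 5.57 CPM) where *Crx* was about level (1.69 against 1.66 CPM), and *Sag* was higher in both KI brains (1.85 CPM each) than in WT 5 (1.28 CPM). Since the libraries fell into 2 clusters for *Crx*, no correlation between the 9 genes is given. Summed over the 9 genes, the level was 9.35 and 12.1 CPM in the KI brains, 2.49, 3.20, 1.87 and 3.25 CPM in WT 1 to WT 4 and 11.6 CPM in WT 5, and *Tph1* and *Crx* made up most of the high sums.

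**Figure D2:**
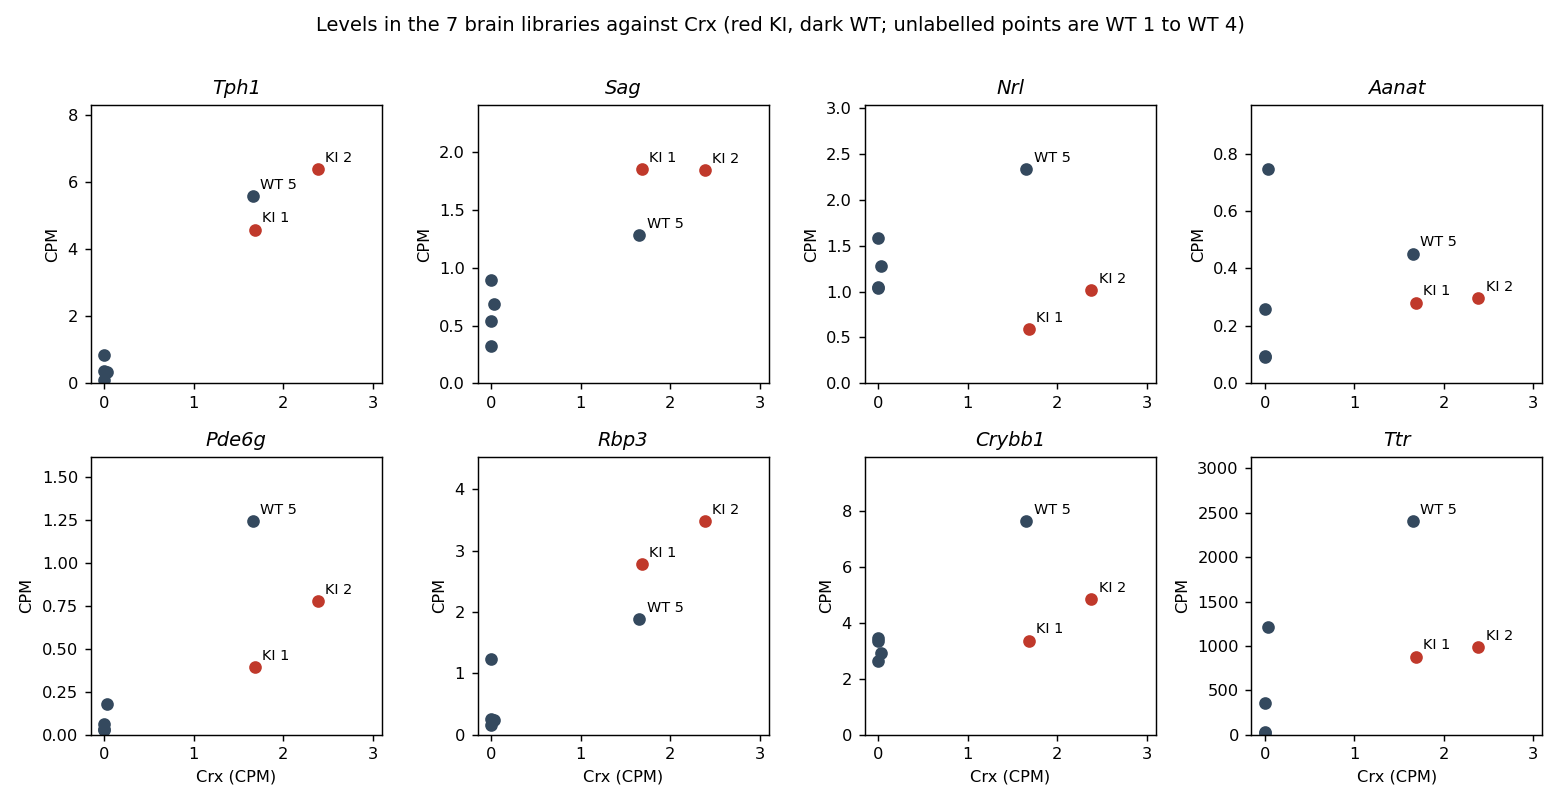
Level in CPM of 8 genes (vertical axes) against that of *Crx* (horizontal axes, CPM) in the 7 brain libraries, with KI mice in red and WT mice in dark blue. *Tph1*, *Sag*, *Pde6g* and *Rbp3* were highest in the 3 libraries with *Crx* above 1 CPM, whereas the points of *Nrl*, *Aanat*, the lens gene *Crybb1* and the choroid plexus gene *Ttr* in those libraries overlapped with the rest.

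Levels were compared between genes per kb of exon. In the KI brains the order was *Tph1* (1.49 CPM per kb), *Crx* (0.644), *Nrl* (0.319), *Sag* (0.208), *Aanat* (0.174), *Rcvrn* (0.109), *Prph2* (0.0292) and *Pde6b* (0.0111), with *Gngt1* at 0. The library values of neighbours did not overlap from *Tph1* down to *Aanat*. They overlapped between *Aanat* and *Rcvrn*, between *Rcvrn* and *Prph2* and between *Prph2* and *Pde6b*. In WT 1 to WT 4 *Nrl* was the highest of the 9 with 0.415 to 0.631 CPM per kb, although its range overlapped with that of *Aanat* (0.0554 to 0.449). There *Tph1* had 0.0259 to 0.228 and *Crx* 0 to 0.00943 CPM per kb. In WT 5 the order again began with *Tph1* (1.51), followed by *Nrl* (0.935) and *Crx* (0.525).

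The difference between KI and WT mice in liver and skin was not used to choose the genes, and those with enough counts were tested there with edgeR's quasi-likelihood test and Benjamini-Hochberg adjustment over all genes of the tissue. At an adjusted p under 0.1, 833 of 14966 genes (5.57%) were called in liver and 4 of 16163 (0.0247%) in skin, in either direction. One of the 9 genes could be tested in liver and 2 in skin, and none was called. In liver, *Sag* had 0.803 ± 0.213 CPM (n = 2) in KI mice and 0.619 ± 0.176 CPM (n = 5) in WT mice, which differed by 0.36 on the log2 scale (SE 0.422, adjusted p = 0.702 by edgeR). In skin its levels were 0.797 ± 0.104 and 0.660 ± 0.229 CPM, which differed by 0.28 on the log2 scale (SE 0.488, adjusted p = 0.999 by edgeR). *Tph1* in skin had 3.34 ± 0.681 CPM in KI mice and 2.82 ± 0.711 CPM in WT mice, which differed by 0.29 on the log2 scale (SE 0.304, adjusted p = 0.999 by edgeR). Within 2 standard errors these differences ranged from -0.48 to 1.21, from -0.69 to 1.26 and from -0.32 to 0.89, and differences within those ranges cannot be told apart with these libraries. The skin counts of *Tph1*, 68 to 111, lay above all of WT 1 to WT 4 and below the KI brains and WT 5.

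Other genes of the photoreceptor were then counted in the brain. In the same edgeR test with all 7 libraries, no gene was called at an adjusted p under 0.1, either higher (0% of 16322) or lower (0%) in KI brains. Before adjustment, 457 genes (2.80%) had p under 0.05 and a higher level in KI brains and 1275 (7.81%) a lower one. DESeq2's Wald test called 57 higher and 456 lower. Without WT 5, edgeR called 672 of 16222 genes higher (4.14%) and 1026 lower (6.32%). Of 51 further photoreceptor genes in the tables, 34 could be tested, of which 0 were called in either direction by edgeR and 4 higher and 0 lower genes had p under 0.05 before adjustment, and DESeq2 called none of them. Among the 4 higher genes, *Pde6c* (14 and 11 counts in the KI brains, at most 4 in a WT brain) passed the filter only through the KI brains. So did *Cngb3* among the 34 (17 and 11 counts, at most 8 in a WT brain). The filter thus had a part in the 4 higher genes and in the median. The median log2 fold change of the 34 was 0.17, against -0.02 over all genes tested. Without WT 5, 2 of 33 were called higher and none lower, with a median of 0.15 against 0.01 over all genes.

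The 2 genes called without WT 5 were *Pde6g* and *Rbp3*. *Pde6g*, which encodes the inhibitory subunit of the rod phosphodiesterase, had 14 and 26 counts in the KI brains and 1, 2, 1, 6 and 33 in WT 1 to WT 5. Its log2 fold change was 0.88 with all libraries (edgeR adjusted p = 0.838) and 2.85 without WT 5 (edgeR adjusted p = 0.0653). The KI brains and WT 5 were again the high libraries, with WT 5 the highest, so leaving WT 5 out removed the highest WT count. In the fit without WT 5, *Pde6g* passed the filter only through the KI brains, and its call there is a description. *Rbp3* encodes the retinoid-binding protein of the space between photoreceptors and pigment epithelium and is also expressed in the pineal gland. It had 99 and 117 counts in the KI brains and 40, 5, 8, 8 and 50 in WT 1 to WT 5. The log2 fold change was 2.01 with all libraries (edgeR adjusted p = 0.456) and 2.72 without WT 5 (edgeR adjusted p = 0.0586). In the fit without WT 5, WT 1 was the only WT brain with at least 10 counts of *Rbp3*. *Rbp3* thus also passed the filter there only through the KI brains, and its call is a description. Both KI brains lay above all WT brains for *Rbp3*, and WT 1 had 40 counts although it had 0 counts of *Crx*. Across the settings tried, the adjusted p ranged from 0.0653 to 1.00 for *Pde6g* and from 0.0586 to 1.00 for *Rbp3*. The window upstream of *Rbp3* (chr14:33953753-33954002, plus strand, GRCm38.p6) is shown for its match to the motif, in capitals, which starts 69 bases before the gene start.
Rbp3: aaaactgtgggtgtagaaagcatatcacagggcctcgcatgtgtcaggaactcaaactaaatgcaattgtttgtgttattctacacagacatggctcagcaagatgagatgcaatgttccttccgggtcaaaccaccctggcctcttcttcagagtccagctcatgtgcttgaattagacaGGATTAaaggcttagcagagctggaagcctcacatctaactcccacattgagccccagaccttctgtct

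Including these, 4 of the 34 genes had the order of *Crx*, namely *Gnb3*, *Pde6g*, *Rbp3* and *Tulp1*, against 760 of all 16322 genes tested (4.66%). *Pde6g* passed the filter only through its high libraries, so the filter had a part in its showing this order. Of the 4 neuron genes used to check the tissue, *Neurod6* also had this order. It had 1629 and 2240 counts in the KI brains, 630 to 1447 in WT 1 to WT 4 and 4198 in WT 5. *Pdc*, which encodes phosducin of photoreceptors and pinealocytes, was under the filter and was picked with its values in view. It had 3 and 13 counts in the KI brains, 0 in WT 1 to WT 4 and 8 in WT 5. *Nr2e3*, a nuclear receptor gene that defines rods, had 0 counts in all 7 brains. The most abundant genes of the list, *Rgs9*, *Unc119* and *Neurod1*, are also expressed by brain neurons, and their log2 fold changes were 0.12, -0.28 and -0.09 (edgeR adjusted p = 0.885, 0.741 and 0.973).

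**Figure D3:**
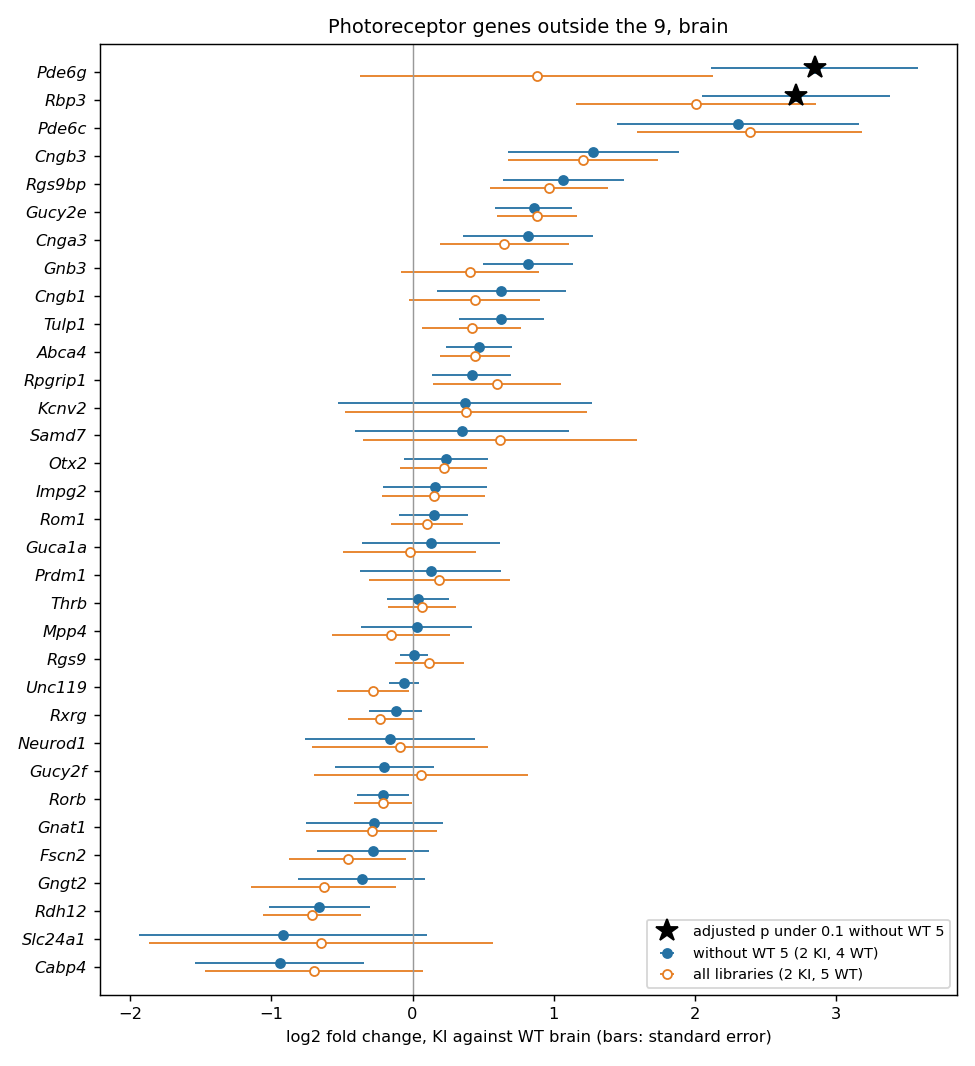
Fitted log2 fold change between KI and WT brains (horizontal axis, bars give the standard error) of the photoreceptor genes outside the 9, one row per gene, with all 7 brain libraries in open orange and without WT 5 in blue. *Pde6g* (2.85) and *Rbp3* (2.72), the 2 genes with an adjusted p under 0.1 without WT 5, are starred, and *Pde6g* had 0.88 with WT 5 included. Both passed the filter of the fit without WT 5 only through the KI brains, so the stars are a description.

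Of 10 further pineal genes in the tables, 9 could be tested, with 0 called by edgeR in either direction, 1 higher and 0 lower at p under 0.05 before adjustment, and none called by DESeq2. Their median log2 fold change was 0.09, and -0.09 without WT 5. *Adrb1*, which encodes the beta-adrenergic receptor through which noradrenaline drives the pinealocyte, was the 1 gene called higher without WT 5. It had 233 and 206 counts in the KI brains and 133, 139, 119, 129 and 128 in WT 1 to WT 5. Its log2 fold change was 0.56 (edgeR adjusted p = 0.427) with all libraries and 0.65 (edgeR adjusted p = 0.0812) without WT 5, with a range of 0.0812 to 1.00 over the settings tried. The 2 KI brains were higher than every WT brain, and in CPM WT 5 came next, so that *Adrb1* was the 1 gene of the list with the order of *Crx*. *Bsx* and *Lhx4*, homeobox genes of pineal development, were picked with their values in view. *Bsx* had 63 and 25 counts in the KI brains and 10, 6, 0, 23 and 9 in WT 1 to WT 5, with both KI brains above every WT brain in CPM (log2 fold change 1.99, edgeR adjusted p = 0.470). *Lhx4* had 36 and 31 counts in the KI brains and 1 count in WT 5 against 25 to 42 in the other WT brains. *Asmt*, the gene of the last enzyme of melatonin synthesis, was on the list but was not found by symbol in the count tables, so it could not be counted.

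Genes of tissues next to the pineal gland or to photoreceptors were counted in the same way, and edgeR called none of them with all libraries or without WT 5. Of the 12 inner retina genes 8 could be tested, of the 23 lens genes 7, of the 12 pigment epithelium genes 6, of the 14 pituitary genes 4, and all 6 habenula and all 11 choroid plexus genes. Their median log2 fold changes were -0.21, -0.43, -0.15, -0.49, 0.35 and 0.61, or 0.05, -0.33, -0.02, -0.21, 0.32 and 1.23 without WT 5. At an unadjusted p under 0.05, 2 lens genes were lower and 1 choroid plexus gene was higher, and DESeq2 called none in these lists. *Rpe65* and *Rgr* of the pigment epithelium, *Lim2* of the lens and *Gh* and *Prl* of the pituitary had 0 counts in all 7 brains. The summed level of the inner retina list was 59.0 to 69.3 CPM in WT 1 to WT 4, 70.2 and 65.4 CPM in the KI brains and 90.1 CPM in WT 5. For the lens list it was 10.3 to 14.6 CPM in WT 1 to WT 4, 10.5 and 13.3 CPM in the KI brains and 18.4 CPM in WT 5. Among the genes used to check the tissue, *Afp* (log2 fold change -4.52), *Apoa1* (-1.18), the keratin gene *Krt10* (-0.91) and *Stmn2* (-0.31) were called lower in KI brains without WT 5 (edgeR adjusted p = 0.0677, 0.0737, 0.0503 and 0.0688), and none was called by edgeR with all libraries and no replicate block, whereas DESeq2 called the first 3. The part of these tissues in the *Crx* and *Tph1* counts was not tested.

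Choroid plexus genes, of the secretory epithelium of the ventricles, moved between libraries on another scale. Their summed level was 944 and 1056 CPM in the KI brains and 52.0, 42.0, 396, 1277 and 2474 CPM in WT 1 to WT 5, and *Ttr* made up most of the high sums. The 3 libraries with high *Crx* were thus among the 4 with the highest sums. WT 4 had a higher sum than either KI brain and 1 count of *Crx*, but *Ttr* made up 40651 of its 42820 counts on this list. *Folr1* and *Kcne2* were also higher in WT 4 than in both KI brains. *Clic6*, *Kcnj13* and *Slc4a5* were lower there, and the rest of the list lay between the KI brains or about level. One of the 11 genes, *Kcnj13*, had the order of *Crx*. The part of choroid plexus tissue in the *Crx* counts was not tested. *Ttr*, the transthyretin gene, had a log2 fold change of 0.14 (edgeR adjusted p = 0.982) with all libraries and 1.20 (edgeR adjusted p = 0.624) without WT 5.

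**Figure D4:**
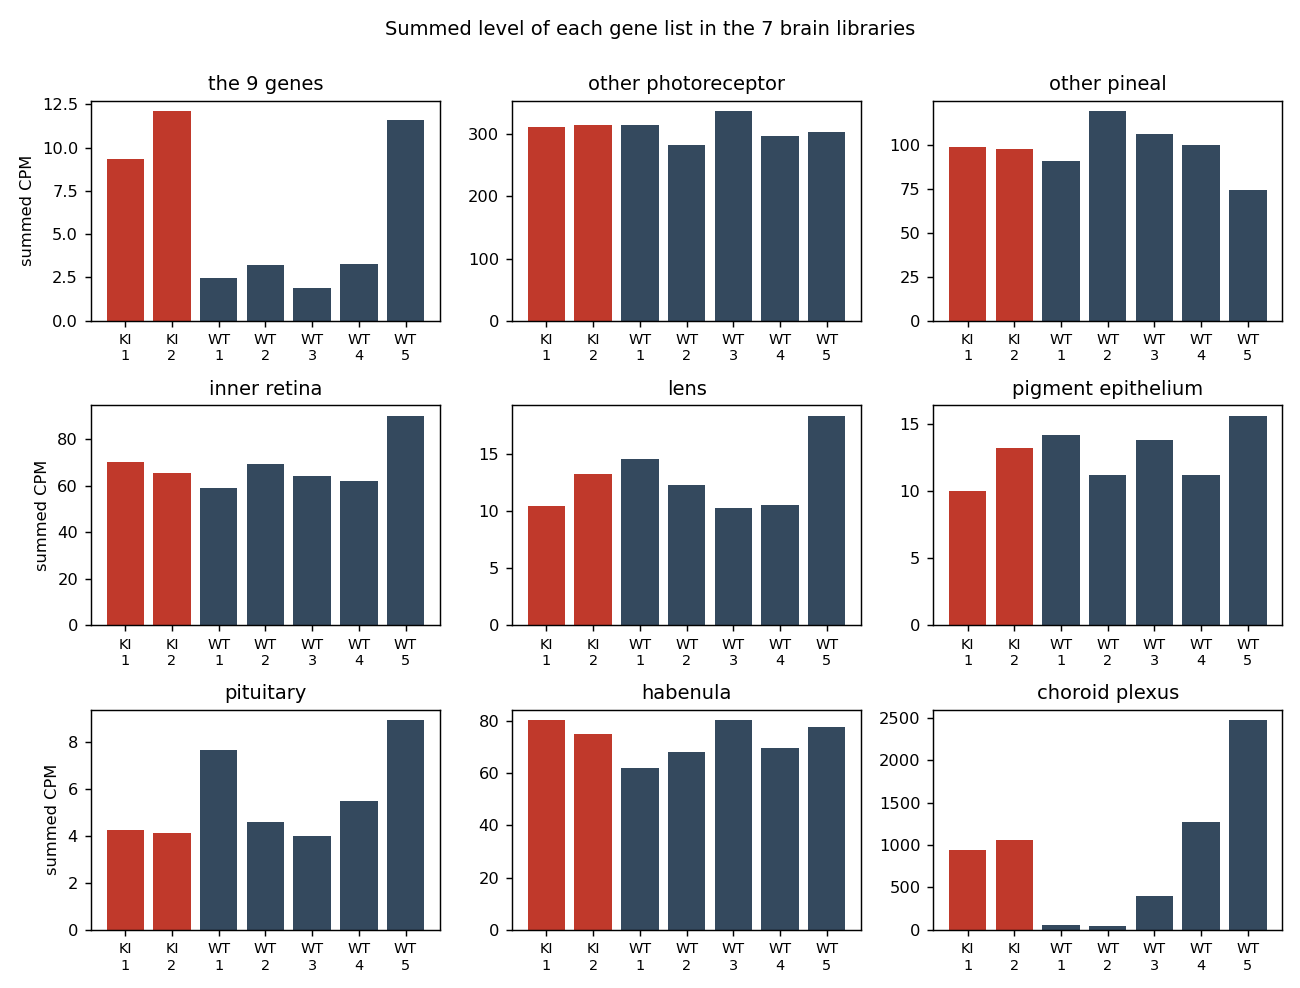
Summed level in CPM (vertical axes, 1 scale per list, from 0) of the 9 genes and of 8 lists of other genes in each brain library, with KI mice in red and WT mice in dark blue. The 9 genes stood at 9.35, 12.1 and 11.6 CPM in KI 1, KI 2 and WT 5 against at most 3.25 CPM in WT 1 to WT 4, and the choroid plexus list was high in the same libraries and in WT 4 (1277 CPM).

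The motif TAATCC was looked for on both strands in the 250 bases upstream of all starts in RefSeq (GRCm38.p6), where 2054 of 32851 windows, or 6.25%, held it. *Crx*, *Sag* and *Gngt1* had it, 3 of 8 windows of the 7 genes with an entry (37.5%), and *Rcvrn* and *Aanat* had no entry. Among the other photoreceptor genes 16 of 48 windows had it (33.3%), *Rbp3* included, and *Pde6g* had no entry. The share was 4 of 9 windows (44.4%) for pigment epithelium genes, 1 of 10 for inner retina genes, 2 of 23 (8.70%) for lens genes and 0 of 12 for pineal genes. In this set the motif did not follow the brain counts, since *Gngt1* held it with at most 1 count and *Tph1*, the most abundant of the 9 in KI brains, did not. A match describes the letters in the window and no bound site.

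The genes whose log2 CPM over the 7 brain libraries was most like the mean of *Crx*, *Sag*, *Nrl*, *Tph1* and *Aanat* were *Hunk* (Pearson r 0.989), *Pde6g* (0.988), *Pik3r2* (0.987), *Zfp362* (0.986) and *Stx6* (0.985), followed by *Pcif1*, *2310022B05Rik*, *Lrrn2*, *Crocc* and *Nr4a3* (0.984 to 0.981). Here r is a measure of likeness over 7 libraries, which for *Crx* fell into 2 clusters, and no p is given. *Hunk*, a kinase gene, had 1430 and 1447 counts in the KI brains and 887, 893, 764, 1146 and 1155 counts in WT 1 to WT 5. *Nr4a3*, a nuclear receptor gene induced by activity, had 522 and 1020 counts in the KI brains and 248, 297, 186, 435 and 1253 counts in WT 1 to WT 5. Apart from *Pde6g*, none of these 10 genes is in the photoreceptor or pineal lists, and the lowest count among those 9 was 186 reads, in a WT brain.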

How the data were processed

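RNA was sequenced from brain, liver and skin of 2 KI and 5 WT newborn mice. According to the study's methods, the authors made TruSeq v2 libraries, which do not mark strand, and used TopHat2 with the mm9 genome. The submitters' processing notes also name HTSeq, and the gene annotation is not given in the sources used here. The deposited values are the authors' raw counts of reads for each gene symbol. The summary lines were left out; the lines for no gene and for more than 1 gene held 12.4% to 19.5% of the reads summed over them and the genes. No replicate files held identical values (0 pairs).

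Groups came from the labels. Counts were filtered with filterByExpr (minimum count 10), normalized by TMM and tested per tissue in edgeR 4.0.16 by quasi-likelihood (limma 3.58.1, R 4.3.3), with Benjamini-Hochberg adjustment over all genes tested and calls at an adjusted p under 0.1. In brain, 5 of the 9 genes passed the filter, *Crx* among them only through its high libraries. CPM per kb used the union of exons in GENCODE vM1. Log2 CPM had a prior count of 2. The scripts were tested on simulated counts.

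The 9 genes and all lists were chosen with earlier results of these data known. The genes named were the 9, the list genes called with all brain libraries or without WT 5, and the 3 most abundant of each list in WT brains, of which a choice is printed. Also named were the 10 most like the mean of the 5 that passed the filter in brain. Other genes printed were picked with their values in view. Libraries share replicate numbers between genotypes without a stated pairing. Alternatives were the size factors and Wald test of DESeq2 1.42.0, no filter, the replicate block, all 21 libraries in 1 fit, an adjusted p of 0.05, a prior count of 0.5 and each library left out. The strand, overlap and motif steps used Python 3.11.15. Items withheld are not reported here.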

Additional observations from a re-analysis of the deposited data

Results flagged for a closer look

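The 9 genes in each tissue and the named list genes in the brain, where the highest WT library had at least 10 counts, gave 44 sets of 5 WT levels in CPM, of which 8 had 1 library whose gap to its nearest neighbour took up more of the whole range than Dixon's critical value of 0.71. Chance gives about 1 in 20. Among the 9 genes, WT 5 was the high library for *Crx* (gap 0.982 of the range) and for *Tph1* (0.864). Both were chosen with their high counts in WT 5 known, so these 2 values restate that choice and are not set against the chance rate. Among the other photoreceptor genes, WT 5 was high for *Pde6g* (0.878). *Pde6g* was screened only because it was called without WT 5, so its value is not set against the chance rate either. In the lists of other tissues WT 5 was high for the lens gene *Crybb1* (0.834) and low for the pineal list gene *Adra1b* (0.744). WT 2 was high for *Ddc* (0.715), *Best1* (0.799) and *Afp* (0.747), which had no matching gap in *Crx* or *Tph1*.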

How the results depend on the processing

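The reported counts of calls in the brain were all 0, and 15 values under the alternatives were above 0. In place of 0 genes called higher and 0 lower, the Wald test of DESeq2 called 57 and 456, the replicate block 783 and 1382 and the fit of all 21 libraries 173 and 441. With 1 library left out the counts ran from 0 to 672 higher and from 0 to 1026 lower, and the only such fit with any call was that without WT 5. Photoreceptor genes called higher were 1 with the replicate block (*Pde6g*), 1 in the fit of all 21 libraries (*Pde6c*, named after its values were seen) and 0 to 2 with 1 library left out. Pineal genes called higher were 1 with the replicate block (*Bsx*) and 0 to 1 with 1 library left out, and choroid plexus genes 8 with the block, *Ttr* among them (log2 fold change 5.11, edgeR adjusted p = 0.00222), and 1 (*F5*) in the fit of all 21 libraries. The block also called *Afp* (-4.67, edgeR adjusted p = 0.0468) and *Krt10* (-1.03, edgeR adjusted p = 0.0407) lower. By its construction that fit sets KI 1 and KI 2 against WT 1 and WT 2 alone. With only 2 shared numbers, same-numbered KI and WT brains had deviations correlated at 0.022 and -0.095, so the libraries share a number and nothing more is known of a pairing. Among the 9 genes, the log2 fold change of *Crx* in the brain was 9.0 with the block and 7.46 without WT 5 against 2.57, that of *Tph1* 3.74 without WT 5 against 1.86 and that of *Aanat* 0.77 with the block against -0.22. The difference of mean log2 CPM of *Gngt1* was -0.64 with a prior count of 0.5 against -0.24. The cause of these moves was not tested. *Sag* in liver and skin and *Tph1* in skin were not called under any alternative and kept their direction. *Aanat* had too few counts for a fit without WT 4 or WT 5. At 1 to 10 counts per library, as for *Rcvrn*, *Pde6b*, *Gngt1* and *Prph2*, depth is the limit.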
